A study of Mus musculus with 40 samples.

Results

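Amino acids enter muscle fibers through a small set of carriers in the plasma membrane, and 10 of these carrier genes were followed through the TSCmKO data set of mouse extensor digitorum longus (EDL) muscle. The carriers and the gene lists used below were chosen with earlier results of these data known. Their shares beside all genes are therefore only a description. The carriers are Slc7a5, Slc3a2, Slc7a8, Slc7a11, Slc7a1, Slc7a2, Slc1a4, Slc1a5, Slc38a2 and Slc38a4, 10 of the 22844 genes in the tables. All 10 were among the 13543 genes with enough reads to test.

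The mice came from the Tsc1tm1Djk/J strain, in which Tsc1 is floxed. TSCmKO mice lack Tsc1, an upstream inhibitor of the mTORC1 kinase complex, in skeletal muscle, so that mTORC1 is held active in their fibers. Control mice (CON) were floxed littermates without Cre recombinase, so that both genotypes carry the floxed allele. The promoter that drives Cre is not given in the sources used here. At 3 and at 9 months of age, mice of each genotype were injected for 3 days with vehicle or with rapamycin (RM), a drug that inhibits mTORC1. The labels give 4 mg/kg of rapamycin, but the study's text gives a higher dose, so the dose is uncertain. There were thus 8 groups, 3mCON, 3mCON+RM, 3mTSCmKO, 3mTSCmKO+RM and the same at 9 months, each with 5 libraries of poly(A) RNA from whole EDL, 1 library per mouse.

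Amino acid carriers differ in what drives them. Exchangers of the LAT type swap an intracellular amino acid such as glutamine for leucine and other large neutral amino acids, and they reach the membrane only when bound to a heavy chain, the product of Slc3a2. Sodium-coupled carriers of system A and the ASCT exchangers handle small neutral amino acids such as alanine, serine and glutamine, and the CAT carriers bring in arginine and lysine without sodium. Intracellular leucine and arginine are read by sensors that act on mTORC1, and the transcription factor ATF4, which is made when amino acids are short and also under mTORC1, is known to drive many carrier genes.

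In the GRCm38 annotation all 10 are protein-coding genes. The heterodimer genes are Slc7a5 at chr8:121881150-121907694, Slc3a2 at chr19:8706882-8723369, Slc7a8 at chr14:54722209-54781946 and Slc7a11 at chr3:49892526-50443614, all on the minus strand. Of the cationic carriers, Slc7a1 lies at chr5:148327410-148399904 on the minus strand and Slc7a2 at chr8:40862396-40922308 on the plus strand. The ASCT genes are Slc1a4 at chr11:20302180-20332713 (minus strand) and Slc1a5 at chr7:16781340-16798274 (plus strand). The system A genes are close neighbors on 1 chromosome, Slc38a2 at chr15:96687392-96699730 and Slc38a4 at chr15:96994820-97055956, both on the minus strand. Reads could also come from other genes where transcripts share sequence. In the GENCODE M21 transcripts, which may differ from the Ensembl set used for the deposited counts, the share of 31-base words found in transcripts of another gene was 0 for Slc7a5, Slc1a4 and Slc1a5, 2.02% for Slc7a2 and 4.34% for Slc3a2, and under these values for the rest.

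Libraries held 8883870 to 35224669 counts, of which the 10 genes took 0.0192% to 0.0515%. Values across groups are given as CPM, counts scaled to a fixed library total after TMM normalisation, and levels of different genes are compared only as TPM, which divides by transcript length. Tsc1, the targeted gene, read 51.3 to 134 CPM in the untreated CON libraries and 24.4 to 35.8 CPM in the untreated TSCmKO libraries, with no overlap at either age. All 8 muscle fiber markers were expressed in every group, and their summed level was 80338 to 98724 CPM in 9mTSCmKO against 123205 to 141084 CPM in 9mCON (4 of 8 called lower and 1 higher). At 9 months tendon markers (Tnmd, Fmod, Chad and Comp) summed to 9.29 to 41.5 CPM in 9mTSCmKO and 40.3 to 355 CPM in 9mCON, and fibroblast markers to 283 to 873 CPM against 791 to 1523 CPM. All 4 tendon markers (median log2 difference -2.30) and 3 of 5 fibroblast markers (-0.76) were called lower, although the ranges of both sums overlapped. Adipocyte markers summed to 1.62 to 6.81 CPM in 9mTSCmKO and 8.61 to 19.8 CPM in 9mCON, with no overlap and 2 of 4 called lower. Macrophage (46.5 to 83.2 against 46.2 to 133 CPM), endothelial (182 to 278 against 216 to 311 CPM), satellite cell (2.65 to 5.75 against 3.65 to 5.57 CPM) and erythroid (275 to 1196 against 355 to 7062 CPM) sums overlapped, with 1 of 7 macrophage markers called higher, 2 of 4 endothelial ones lower and no satellite cell or erythroid one. In whole-muscle RNA, a loss of cells of 1 type and a loss of RNA per cell cannot be told apart, and the part of these markers in the results was not tested. Libraries of 3 months had inserts of 175 to 239 nt and those of 9 months 223 to 308 nt where the labels give one, so that age and library preparation cannot be told apart.

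In untreated control muscle the 10 carriers spanned a wide range of levels per length. In 9mCON the system A carriers Slc38a2 and Slc38a4 were the most abundant, with means of 46.5 and 45.7 TPM, followed by the heavy chain Slc3a2 at 35.8 TPM, and the ranges of these 3 overlapped. Slc7a2 (15.8 TPM) and Slc1a5 (13.8 TPM) came next, overlapping each other but not Slc3a2. The light chain Slc7a8 read 3.24 TPM and its relative Slc7a5 1.61 TPM, and Slc7a1, Slc7a11 and Slc1a4 were lowest at 1.24, 0.631 and 0.405 TPM. In 9mTSCmKO Slc3a2 (53.1 TPM) and Slc38a2 (49.9 TPM) had the highest means, with overlapping ranges, and Slc7a5, at 7.58 TPM, overlapped Slc7a2 at 7.54 TPM and Slc1a5 at 7.38 TPM.

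**Figure D1:**
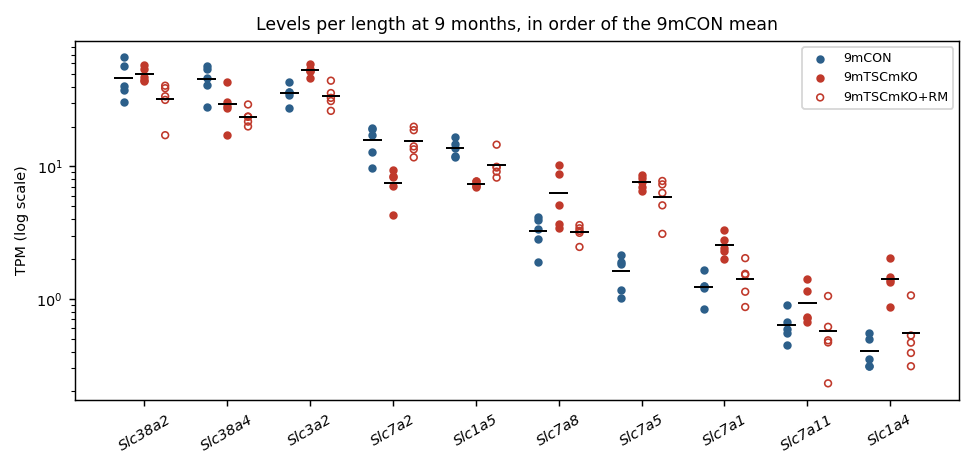
Level per transcript length (TPM, log axis) of the 10 genes in the 5 libraries of 9mCON (blue), 9mTSCmKO (red) and 9mTSCmKO+RM (open red), with the group mean as a line, in the order of the 9mCON means. The mean of Slc7a5 was 1.61 TPM in 9mCON and 7.58 TPM in 9mTSCmKO, while those of Slc7a2 and Slc1a5 were lower in 9mTSCmKO than in 9mCON.

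Whether sustained mTORC1 activity in fibers goes with a change in these carriers was asked first at 9 months. In 9mTSCmKO against 9mCON, 6 of the 10 genes rose (Slc7a5, Slc3a2, Slc7a8, Slc7a11, Slc7a1 and Slc1a4), 3 fell (Slc7a2, Slc1a5 and Slc38a4), and Slc38a2 did not pass the test. Among all genes tested, 19.1% were higher and 18.9% were lower. The median log2 difference was 0.71 over the 10 genes and -0.02 over all genes tested. For 7 of the 10 the groups did not overlap, as for 16.0% of all genes tested. That share was not counted for the other comparisons. A gene was called at an adjusted p under 0.05 over all genes tested (edgeR quasi-likelihood test).

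Slc7a5, which encodes the leucine exchanger LAT1, had the largest difference of the 10. Its values were 3.602, 2.26, 1.79, 3.33 and 3.15 CPM in 9mCON and 14.4, 13.1, 16.0, 10.4 and 11.6 CPM in 9mTSCmKO. Every TSCmKO library lay above every control library, and the fitted level was 4.57-fold higher (log2 2.19, SE 0.20, adjusted p = 4.13e-11). Its heavy chain partner Slc3a2 read 36.3, 33.1, 36.1, 33.1 and 37.0 CPM in 9mCON and 54.2, 51.7, 58.5, 48.2 and 44.3 CPM in 9mTSCmKO. These groups did not overlap either, but the difference was smaller, at 1.46-fold (log2 0.55, SE 0.11, adjusted p = 0.000146).

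Slc7a8, the LAT2 light chain, was 1.83-fold higher (log2 0.87, SE 0.28, adjusted p = 0.0139), but its TSCmKO libraries fell apart. Replicates 1 and 2 of 9mTSCmKO read 19.3 and 20.9 CPM, and the other 3 read 8.15, 10.7 and 8.05 CPM, beside 5.28 to 9.27 CPM in 9mCON. Without replicate 1 the adjusted p was 0.0593 and without replicate 2 it was 0.0689, so that the call rests on each of them.

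Slc7a11 encodes the cystine and glutamate exchanger xCT, which also pairs with the Slc3a2 heavy chain and supplies cystine for glutathione. Its values were 1.71, 1.51, 1.38, 1.04 and 1.14 CPM in 9mCON and 2.601, 3.06, 2.79, 3.69 and 2.19 CPM in 9mTSCmKO. The groups did not overlap, and the fitted difference was 2.12-fold (log2 1.08, SE 0.24, adjusted p = 0.000364). The gene is rare in this muscle, with 6 to 64 counts a library over all 40. In the deposited TPM the groups overlapped, at 0.444 to 0.894 TPM in 9mCON and 0.666 to 1.41 TPM in 9mTSCmKO (means 0.631 and 0.934), and limma on log2(TPM + 1) without a filter gave a log2 difference of 0.24 on that scale (adjusted p = 0.134).

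Slc1a4, for the serine and alanine exchanger ASCT1, also had few reads, with 1 to 83 counts a library and at least 1 CPM in 20 of the 40, 15 of them outside 9mTSCmKO. It read 1.18, 0.830, 0.650, 0.764 and 0.981 CPM in 9mCON and 2.81, 2.82, 4.64, 2.77 and 1.79 CPM in 9mTSCmKO. All TSCmKO libraries lay above all control libraries (3.31-fold, log2 1.73, SE 0.35, adjusted p = 0.000131).

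The promoters of Slc7a11 and Slc1a4 are shown because they were the only ones among the members' promoters in the table used that held the letters TGATGNAA, the core of the amino acid response element bound by ATF4 with C/EBP partners. The RefSeq promoter table (GRCm38.p6, 250 bases before to 50 after the start) held 10 promoters for 7 of the 10 genes, and none was matched for Slc7a5, Slc7a2 and Slc1a5. Both strands were searched within these bases only, so elements elsewhere in any of the genes would be missed, and capitals mark the matches. The 2 promoters are given from 250 bases before to 10 bases after the start, on the minus strand, at chr3:50443604-50443863 for Slc7a11 and chr11:20332704-20332963 for Slc1a4.
Slc7a11: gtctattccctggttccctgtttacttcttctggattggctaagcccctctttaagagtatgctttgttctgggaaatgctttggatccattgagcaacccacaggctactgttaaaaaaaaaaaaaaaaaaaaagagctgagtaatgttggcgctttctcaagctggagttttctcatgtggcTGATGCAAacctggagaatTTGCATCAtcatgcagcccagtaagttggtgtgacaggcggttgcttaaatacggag
Slc1a4: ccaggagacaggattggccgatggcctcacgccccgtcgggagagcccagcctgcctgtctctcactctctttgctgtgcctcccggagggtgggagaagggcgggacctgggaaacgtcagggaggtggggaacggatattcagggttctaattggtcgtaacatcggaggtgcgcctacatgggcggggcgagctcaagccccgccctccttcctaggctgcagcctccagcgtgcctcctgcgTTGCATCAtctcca

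In the Slc7a11 promoter TGATGCAA is on the same strand as the gene at -66 to -59 and on the opposite strand at -47 to -40, counted from the start. In the Slc1a4 promoter it is on the opposite strand, across the start from -4 to 4. Among 32851 promoters of 300 bases, 3.97% held at least 1 match and 0.07% held 2 or more. A match of letters is a description and not a binding site.

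The cationic carriers moved in opposite directions. Slc7a1 (CAT1), the widely expressed arginine carrier, rose from 4.37, 3.70, 4.55, 5.02 and 5.47 CPM in 9mCON to 9.42, 9.94, 9.61, 10.9 and 7.52 CPM in 9mTSCmKO (2.04-fold, log2 1.03, SE 0.17, adjusted p = 5.06e-06). Slc7a2 (CAT2), a carrier for the same amino acids that muscle and liver express, read 48.6, 43.0, 67.1, 62.7 and 60.01 CPM in 9mCON and 35.6, 27.8, 17.2, 24.2 and 29.4 CPM in 9mTSCmKO. It was thus 0.478 times the control level (log2 -1.07, SE 0.18, adjusted p = 9.89e-06), and neither pair of groups overlapped.

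The ASCT genes also parted. Slc1a5, for the glutamine exchanger ASCT2, read 17.1, 18.0, 13.6, 15.6 and 16.9 CPM in 9mCON and 9.00, 8.06, 9.89, 7.91 and 7.13 CPM in 9mTSCmKO. No library overlapped, and the level was 0.517 times that of 9mCON (log2 -0.95, SE 0.26, adjusted p = 0.00381), while Slc1a4 rose as given above.

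Of the system A genes, Slc38a4 (SNAT4) fell and Slc38a2 (SNAT2) did not pass the test. Slc38a4 read 50.7 to 104 CPM in 9mCON and 28.6 to 71.3 CPM in 9mTSCmKO, so the groups overlapped (0.619 times, log2 -0.69, SE 0.19, adjusted p = 0.00338). When the groups compared were fitted alone its adjusted p was 0.056. Slc38a2 averaged 121 ± 36.5 CPM (SD, n = 5) in 9mCON and 124 ± 8.97 CPM in 9mTSCmKO, with a log2 difference of 0.02 and a 95% interval of -0.31 to 0.36.

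**Figure D2:**
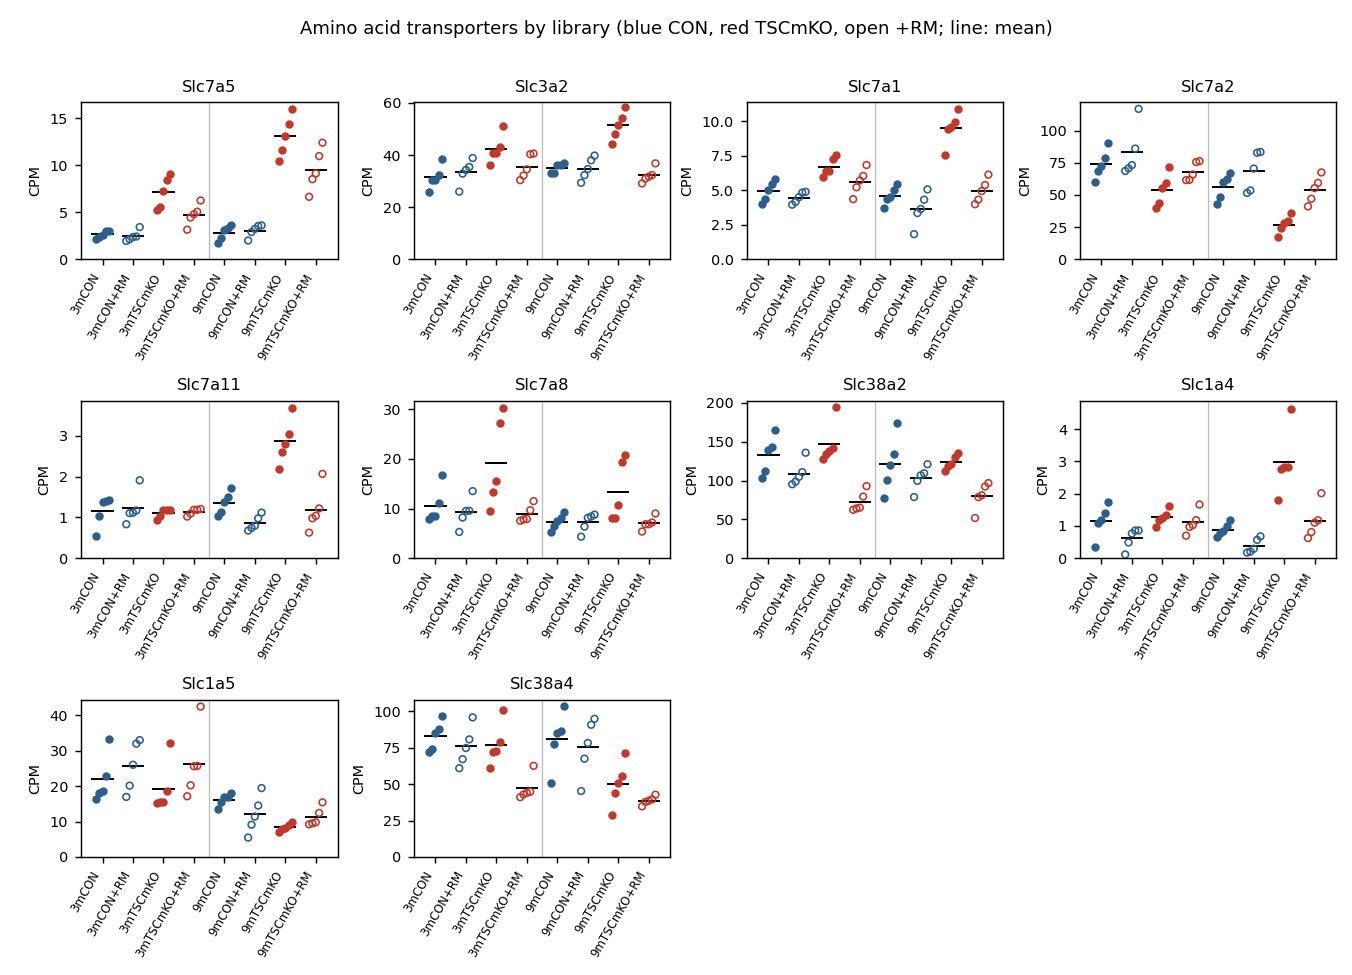
CPM of each of the 10 genes in all 40 libraries, in 8 groups of 5, with 3 months on the left and 9 months on the right of each panel. CON is blue, TSCmKO red, rapamycin open symbols, and the line is the group mean. Slc7a5 in 9mTSCmKO lay between 10.4 and 16.0 CPM, above all 9mCON libraries, and Slc7a2 in 9mTSCmKO between 17.2 and 35.6 CPM, below all of them.

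At 3 months fewer carriers were called, as were fewer of all genes tested. In 3mTSCmKO against 3mCON, 3 of the 10 genes rose (Slc7a5, Slc3a2 and Slc7a8) beside 11.4% higher among all genes tested. None fell (1 at an unadjusted p under 0.05, Slc7a2), beside 8.32% lower among all genes. DESeq2 called 4 higher and none lower. Slc7a5 read 2.41, 2.64, 3.06, 2.11 and 3.04 CPM in 3mCON and 8.43, 9.08, 5.29, 7.29 and 5.58 CPM in 3mTSCmKO. The groups did not overlap (2.70-fold, log2 1.43, SE 0.21, adjusted p = 1.31e-06). Slc3a2 averaged 31.6 ± 4.55 CPM (SD, n = 5) in 3mCON and 42.5 ± 5.53 CPM in 3mTSCmKO (1.34-fold, adjusted p = 0.00458), with overlapping groups.

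Slc7a8 at 3 months had the same uneven pattern as at 9 months. In 3mTSCmKO replicates 4 and 5 read 30.3 and 27.2 CPM and the others 9.55, 15.5 and 13.4 CPM, while 3mCON ran from 7.84 to 16.7 CPM. The fitted difference was 1.85-fold (log2 0.89, SE 0.28, adjusted p = 0.0189). The call was lost without either of the high libraries (adjusted p 0.088 without replicate 4 and 0.0748 without replicate 5 of 3mTSCmKO), without 3mCON replicate 1 (0.0518) or 3mCON replicate 4 (0.0556), and with the groups fitted alone (0.0784) or in limma fits of TPM (0.0579 to 0.0987).

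The remaining 7 genes did not pass the test at 3 months. Slc7a1 came near the threshold at 1.37-fold with no overlap between groups (5.96 to 7.58 CPM in 3mTSCmKO, 4.03 to 5.78 CPM in 3mCON, adjusted p = 0.0505), and without 3mCON replicate 3 or 3mTSCmKO replicate 3 it was called, with adjusted p values of 0.0322 and 0.0474. It was also called with the groups fitted alone (0.0187), by DESeq2 (0.029) and with the replicate number as a block (0.034). Slc7a2 was 0.729 times the control level (adjusted p = 0.0635), and it was called without 3mCON replicate 5 (0.0455), without 3mTSCmKO replicate 4 (0.0261), and, with all libraries, under upper-quartile scaling (0.0383) or with the groups fitted alone (0.0439). Slc7a11 and Slc1a4, which rose at 9 months, had log2 differences of -0.10 (95% interval -0.60 to 0.40) and 0.18 (-0.52 to 0.88).

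The difference between the ages was itself tested. The genotype effect differed for 1 of the 10 genes, Slc7a11, whose log2 effect was 1.18 higher at 9 than at 3 months (SE 0.34, adjusted p = 0.0353), beside 3.01% of all genes tested with a higher effect at 9 months. That call was lost without any 1 of 9 of the 20 libraries (3mCON replicates 1, 4 and 5, 3mTSCmKO replicates 3 and 5, 9mCON replicates 3, 4 and 5 and 9mTSCmKO replicate 4, with adjusted p values of 0.052 to 0.0764), and DESeq2, which kept it, also called Slc1a4. Slc1a4 had the largest estimate, 1.55 (SE 0.49), with an adjusted p of 0.0575, and was called without 3mCON replicate 4 (0.0172), 9mCON replicate 1 (0.0376) or 9mTSCmKO replicate 5 (0.0311). Limma on log2(TPM + 1) also called Slc1a4 (adjusted p = 0.0151, and 0.00963 without a filter), and its unfiltered fit did not call Slc7a11 (0.403). For Slc7a5 the effect was 0.76 log2 units larger at 9 months (95% interval 0.18 to 1.34, adjusted p = 0.119). With insert size as a term the difference for Slc7a11 was 1.15 (adjusted p = 0.0565). The genotype effect at 9 months was also lower than at 3 months for 2 of 5 erythroid markers (median log2 difference over the 5 -3.78). It was lower for 1 of 8 muscle fiber markers too, and the part of these markers was not tested.

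Within TSCmKO, 5 genes were higher at 9 than at 3 months (Slc7a5, Slc3a2, Slc7a1, Slc7a11 and Slc1a4; 19.1% of all genes tested were higher) and 3 were lower (Slc7a2, Slc1a5 and Slc38a4; 18.3% lower). With insert size as a term, 878 of 13537 genes tested were higher and 823 lower, against 2586 and 2478 of 13543 without it. Of the 8 carriers 3 passed with that term, namely Slc7a11, Slc7a2 and Slc1a5. Of the 5 that did not, Slc7a5 had a log2 difference of 0.78 (0.88 without the term, adjusted p = 0.0526), Slc1a4 0.71 (from 1.20), Slc7a1 0.40 (from 0.49), Slc38a4 -0.40 (from -0.63) and Slc3a2 0.07 (from 0.28). Slc7a1 also lost its call in the 3 limma fits (adjusted p 0.0772 to 0.16), and Slc3a2 lost its call in those (0.294 to 0.336), without a filter (0.113), with the groups fitted alone (0.0963) and without any 1 of 7 of the 10 libraries (3mTSCmKO replicates 1, 3, 4 and 5 and 9mTSCmKO replicates 1, 2 and 3, with adjusted p values of 0.0666 to 0.134). Slc7a8 was called lower without 3mTSCmKO replicate 1 (0.0461) or 9mTSCmKO replicate 2 (0.0352). Markers also differed between these groups: 4 of 4 tendon (summed 9.29 to 41.5 CPM in 9mTSCmKO, 91.6 to 303 CPM in 3mTSCmKO), 4 of 4 adipocyte (1.62 to 6.81 and 7.59 to 47.2 CPM), 4 of 5 erythroid (275 to 1196 and 467 to 9036 CPM), 3 of 5 fibroblast (283 to 873 and 822 to 1383 CPM), 3 of 4 endothelial (182 to 278 and 276 to 309 CPM) and 4 of 8 muscle fiber markers (80338 to 98724 and 84352 to 150346 CPM) were called lower at 9 months, and of 7 macrophage markers 1 was higher and 1 lower. Their part in the carriers' values was not tested. Within CON none of the 10 differed with age by edgeR, DESeq2 or limma, 1 did at an unadjusted p under 0.05, and 1.02% of all genes tested did.

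The second question was whether 3 days of rapamycin changed the carriers in TSCmKO muscle. At 9 months 6 of the 10 genes were lower in 9mTSCmKO+RM than in 9mTSCmKO (Slc3a2, Slc7a8, Slc7a11, Slc7a1, Slc1a4 and Slc38a2), beside 16.8% lower among all genes tested. Only Slc7a2 was higher, beside 15.8% higher. The median log2 difference was -0.65 over the 10 genes and -0.04 over all. This comparison uses the same 9mTSCmKO libraries as the genotype comparison. The muscle fiber marker sum was 126509 to 152380 CPM in 9mTSCmKO+RM, above its range in 9mTSCmKO (5 of 8 called higher). Of the endothelial markers 1 of 4 was called higher and 1 lower, and 1 of 2 satellite cell markers was higher. The part of these markers in the carriers' values was not tested.

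Slc7a5 was not called. It read 6.65, 8.53, 9.14, 12.4 and 10.98 CPM in 9mTSCmKO+RM, overlapping the 10.4 to 16.0 CPM of 9mTSCmKO (0.728 times, log2 -0.46, SE 0.19, adjusted p = 0.0579). DESeq2 called it (adjusted p = 0.0482), as did the fit without 9mTSCmKO replicate 4 (0.0323) or without 9mTSCmKO+RM replicate 4 (0.0253). Its partner Slc3a2 fell to 29.1, 31.7, 36.8, 32.3 and 30.98 CPM, with no overlap with 9mTSCmKO (0.627 times, log2 -0.67, SE 0.11, adjusted p = 1.22e-05).

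Slc7a11 read 0.626, 1.04, 0.979, 2.07 and 1.22 CPM after rapamycin, all below the lowest 9mTSCmKO library at 2.19 CPM (0.416 times, log2 -1.26, SE 0.24, adjusted p = 7.88e-05, and 0.0547 by limma on unfiltered log2(TPM + 1)). Slc1a4 read 1.17, 0.807, 2.01, 0.620 and 1.098 CPM, and 1 of these 5 lay above the lowest 9mTSCmKO library (0.391 times, log2 -1.35, SE 0.34, adjusted p = 0.00197). The promoters of Slc7a11 and Slc1a4 are printed above. Slc3a2, Slc7a8, Slc7a1 and Slc38a2, also lower, held no match in the promoters searched. Slc7a8 ran from 5.36 to 9.00 CPM after rapamycin and was 0.524 times the untreated level (log2 -0.93, SE 0.28, adjusted p = 0.0105), with overlap. The call remained without any 1 of the 10 libraries.

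The cationic carriers again moved apart. Slc7a1 read 3.99, 4.32, 5.38, 6.13 and 4.94 CPM in 9mTSCmKO+RM, all below 9mTSCmKO (0.524 times, log2 -0.93, SE 0.17, adjusted p = 3.52e-05). Slc7a2 read 55.3, 67.5, 59.4, 47.0 and 41.1 CPM, all above 9mTSCmKO (2.01-fold, log2 1.01, SE 0.18, adjusted p = 3.66e-05). Slc38a2, which had not differed by genotype, fell to 51.7, 78.5, 92.3, 81.0 and 96.7 CPM, below every 9mTSCmKO library (113 to 135 CPM; 0.648 times, log2 -0.63, SE 0.17, adjusted p = 0.004). Slc1a5 (log2 0.42, SE 0.26, adjusted p = 0.221) and Slc38a4 (log2 -0.37, SE 0.19, adjusted p = 0.13) did not pass, but Slc38a4 was called without 9mTSCmKO replicate 4 (0.0213).

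At 3 months 4 of the 10 genes fell with rapamycin in TSCmKO (Slc7a5, Slc7a8, Slc38a2 and Slc38a4), beside 13.0% lower among all genes tested, and none rose, also at an unadjusted p under 0.05 and by DESeq2 or limma, beside 10.6% higher. Muscle fiber markers summed to 84352 to 150346 CPM in 3mTSCmKO and 135685 to 168191 CPM in 3mTSCmKO+RM (4 of 8 called higher), macrophage markers to 54.8 to 117 and 77.0 to 147 CPM (2 of 7 higher) and fibroblast markers to 822 to 1383 and 1154 to 2135 CPM (1 of 5 higher). Their part in these results was not tested. Slc38a2 had the smallest adjusted p, with 138, 141, 134, 195 and 128 CPM in 3mTSCmKO and 62.3, 65.1, 92.8, 64.0 and 79.3 CPM in 3mTSCmKO+RM. The groups did not overlap (0.494 times, log2 -1.02, SE 0.17, adjusted p = 1.66e-05). Slc38a4 fell from a mean of 77.2 ± 14.7 CPM (SD, n = 5) to 47.1 ± 8.80 CPM (0.611 times, adjusted p = 0.00425), with 1 treated library, at 62.6 CPM, above the lowest untreated one. Slc7a8 fell to 7.53 to 11.5 CPM (0.459 times, adjusted p = 0.0023).

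Slc7a5 was 0.667 times the untreated level at 3 months (3.15 to 6.26 CPM after rapamycin, log2 -0.58, SE 0.19, adjusted p = 0.0246). Its call was lost without 3mTSCmKO replicate 1 (0.0701) or 2 (0.0895), and without 3mTSCmKO+RM replicate 1 (0.0899) or 2 (0.0565). It was also lost in all 3 limma fits of TPM, with a highest adjusted p of 0.149. Slc1a5 did not pass (log2 0.43, SE 0.25, adjusted p = 0.221) except without 3mTSCmKO replicate 4, where it was called higher after rapamycin (log2 0.70, adjusted p = 0.0418).

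**Figure D3:**
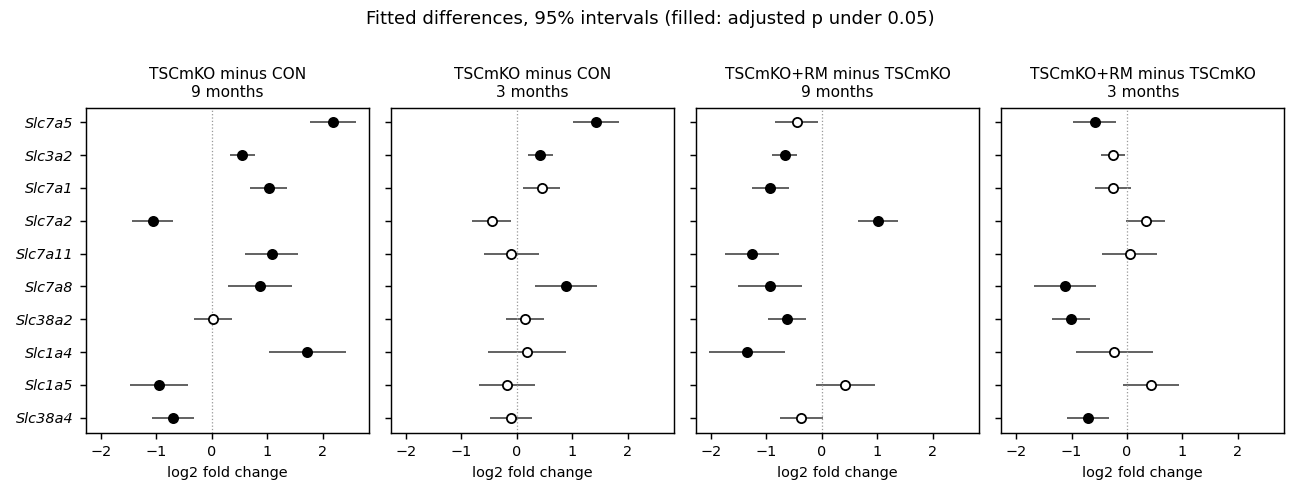
Log2 fold change of the 10 genes with its 95% interval in 4 comparisons, TSCmKO minus CON and TSCmKO+RM minus TSCmKO, at 9 and 3 months, where filled points have an adjusted p under 0.05. At 9 months 6 genes were called higher and 3 lower by genotype, and 6 lower and 1 higher with rapamycin. The 2 comparisons of an age share the untreated TSCmKO libraries.

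In control muscle no carrier passed the test. With rapamycin in CON at 9 months, 0 of 10 genes were called by edgeR, DESeq2 or limma, 2 had an unadjusted p under 0.05, and 11.8% of all genes tested were called in either direction. Slc1a4 came nearest, at 0.203, 0.566, 0.289, 0.172 and 0.675 CPM in 9mCON+RM from 2 to 11 counts a library (log2 -1.16, SE 0.42, adjusted p = 0.0681, and 0.0474 without 9mCON+RM replicate 5). At 3 months 0 of 10 were called by edgeR, DESeq2 or limma, 1 had an unadjusted p under 0.05, and 0.679% of all genes tested were called. The log2 differences at 3 months ran from -0.76 for Slc1a4 (95% interval -1.52 to -0.00) to 0.23 for Slc1a5 (-0.27 to 0.74). In 9mCON+RM the tendon marker sum was 8.57 to 27.9 CPM and the fibroblast sum 121 to 577 CPM, both below their ranges in 9mCON. The macrophage sum was 13.9 to 38.4 CPM against 46.2 to 133 CPM in 9mCON (5 of 7 markers called lower), and the muscle fiber sum was 160706 to 169240 CPM, above its range in 9mCON. The part of these markers in the carriers' values was not tested.

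Whether rapamycin acted differently in the 2 genotypes was tested as an interaction. At 9 months it passed for 1 of the 10, Slc3a2, whose rapamycin effect was 0.66 log2 units lower in TSCmKO than in CON (SE 0.16, adjusted p = 0.00994), beside 2.31% of all genes tested. In CON Slc3a2 read 33.1 to 37.0 CPM without and 29.4 to 39.8 CPM with rapamycin. That call was lost in the 3 limma fits of TPM (adjusted p 0.0799 to 0.103). Slc7a2 (log2 0.73, SE 0.25, adjusted p = 0.0806) and Slc7a1 (log2 -0.58, SE 0.24, adjusted p = 0.153) did not pass, but Slc7a2 was called without 9mCON replicate 2 (0.0471) or 9mTSCmKO replicate 1 (0.0446) and Slc7a1 without 9mCON+RM replicate 1 (0.0315). At 3 months 0 of 10 passed with edgeR, DESeq2 or limma, 4 had an unadjusted p under 0.05, and 3.45% of all genes tested passed. Slc38a2 had the smallest adjusted p there (log2 -0.74, SE 0.24, adjusted p = 0.0806), and it was called without 3mCON replicate 3 (0.049) or 3mTSCmKO+RM replicate 3 (0.0463), and with the groups fitted alone (0.0272) or the replicate number as a block (0.0347).

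A further comparison, chosen after the values were seen, set the rapamycin effect in TSCmKO at 9 months against that at 3 months. It passed for Slc7a11 alone of the 10 (log2 -1.31, SE 0.34, adjusted p = 0.034), beside 1.09% of all genes tested with a lower effect at 9 months. The call was lost without any 1 of 9 of the 20 libraries (3mTSCmKO replicates 3 and 5, 3mTSCmKO+RM replicates 2, 3 and 5, 9mTSCmKO replicate 3 and 9mTSCmKO+RM replicates 1, 2 and 3, with adjusted p values of 0.0522 to 0.0687).

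Treated TSCmKO muscle was last set against untreated control muscle. At 9 months 1 carrier was higher (Slc7a5, beside 15.7% of all genes tested), 2 were lower (Slc38a2 and Slc38a4, beside 16.2%), and 7 did not pass. Slc7a5 was 3.33-fold above 9mCON (log2 1.74, SE 0.20, adjusted p = 2.04e-08), with all 5 libraries above all 5 controls. Slc38a4 was 0.479 times (34.8 to 42.8 CPM, all below 9mCON, adjusted p = 3.22e-05), and Slc38a2 was 0.659 times the level of 9mCON (adjusted p = 0.00531, and 0.0519 to 0.0856 in limma fits or with the groups fitted alone). Slc1a5 was called lower only in the last of these (adjusted p = 0.0313). For Slc3a2, Slc7a1, Slc7a2 and Slc7a11 the 95% intervals were -0.35 to 0.10, -0.25 to 0.44, -0.42 to 0.30 and -0.69 to 0.32 on the log2 scale. In 9mTSCmKO+RM the tendon sum was 7.61 to 37.4 CPM (4 of 4 markers called lower than in 9mCON, median log2 difference -2.86) and the fibroblast sum 353 to 635 CPM (4 of 5 lower, -1.12), both below their ranges in 9mCON. Of the other markers given here, 3 of 7 macrophage, 1 of 4 adipocyte and 1 of 5 erythroid ones were lower and 3 of 8 muscle fiber ones higher, and the part of these markers in the carriers' values was not tested.

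At 3 months the same 3 genes were called, with 8.98% higher and 7.71% lower among all genes tested. Slc7a5 was 1.80-fold above 3mCON (adjusted p = 0.00294), Slc38a2 0.548 times (adjusted p = 0.000237) and Slc38a4 0.566 times (adjusted p = 0.00155). The groups did not overlap for these genes, but the share of all genes without overlap was not counted here. Macrophage (2 of 7) and muscle fiber markers (1 of 8) were called higher, and their part was not tested. These comparisons share the treated libraries with the rapamycin comparisons and the controls with the genotype comparisons.

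Ratios of related carriers within a library do not depend on how libraries are scaled, so 4 were followed as log2 ratios of TPM. Of 24 exact permutation tests (two-sided, 5 against 5), 6 passed after Benjamini-Hochberg adjustment, all at an adjusted p of 0.0317, and the smallest p that 5 against 5 can give is 0.00794. The ratio of Slc7a1 to Slc7a2 was between -4.03 and -3.37 in 9mCON and between -2.05 and -0.91 in 9mTSCmKO, with no overlap. That is a mean of 0.0793 Slc7a1 per Slc7a2 in control muscle and 0.346 in TSCmKO muscle (log2 difference 2.13, exact permutation p = 0.00794). After rapamycin the mean was 0.089 (log2 difference -1.96, exact permutation p = 0.00794), and at 3 months it was 0.117 in 3mTSCmKO against 0.0599 in 3mCON (log2 difference 0.97, exact permutation p = 0.00794).

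The ratio of Slc1a5 to Slc1a4 fell from a mean of 34.8 in 9mCON to 5.41 in 9mTSCmKO (log2 difference -2.68, exact permutation p = 0.00794) and was 20.2 after rapamycin (log2 difference 1.901, exact permutation p = 0.00794). At 3 months it was 42.1 in 3mCON and 29.9 in 3mTSCmKO (exact permutation p = 0.302). The ratio of Slc7a5 to Slc7a8, which share the heavy chain, rose from 0.495 to 1.33 at 9 months (log2 difference 1.43, exact permutation p = 0.00794) and was 1.78 after rapamycin (exact permutation p = 0.349). The ratio of Slc38a2 to Slc38a4 was 1.01 in 9mCON and 1.75 in 9mTSCmKO (exact permutation p = 0.0238, adjusted p = 0.0714). The Slc7a5 to Slc7a8 call at 9 months was lost without any 1 of the 5 9mCON libraries (adjusted p 0.0635 to 0.0816), the Slc1a5 to Slc1a4 call with rapamycin without any 1 of the 5 9mTSCmKO libraries (0.0544 to 0.0635), and the Slc7a1 to Slc7a2 call at 3 months without 3mTSCmKO replicate 1, 3 or 5 (0.0635 each). In these subsets of 4 against 5 the groups still did not overlap and the unadjusted p was 0.0159 or 0.0238. The log2 difference for Slc7a5 to Slc7a8 was 1.30 to 1.53 without 1 of the 9mCON libraries, against 1.43 with all.

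Leaving out 1 library also added calls. The Slc38a2 to Slc38a4 ratio passed by genotype without 9mTSCmKO replicate 5 (adjusted p = 0.0317, exact permutation test). Without 3mTSCmKO replicate 4 the Slc1a5 to Slc1a4 ratio, and without 3mTSCmKO+RM replicate 4 the Slc7a1 to Slc7a2 ratio, passed with rapamycin at 3 months (0.0272 each, exact permutation test). The Slc7a1 to Slc7a2 ratio passed with rapamycin in CON at 9 months without 9mCON+RM replicate 3 (0.0272, exact permutation test).

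**Figure D4:**
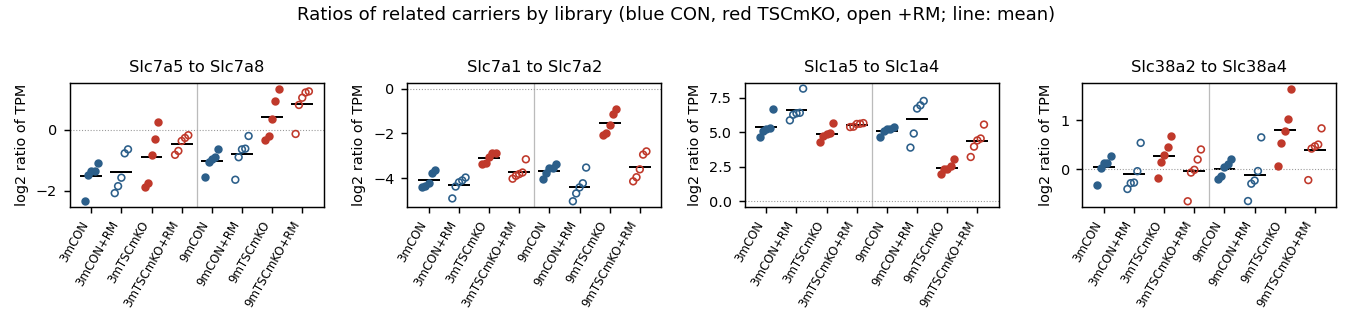
Log2 ratio of TPM of 4 pairs of related carriers in each of the 40 libraries, in 8 groups of 5 (CON blue, TSCmKO red, rapamycin open, line at the mean). The ratio of Slc7a1 to Slc7a2 in 9mTSCmKO lay between -2.05 and -0.91, above all other untreated groups, and that of Slc1a5 to Slc1a4 between 1.95 and 3.03, below them.

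Other amino acid carriers were counted from a list of 45 genes, of which 28 were tested. At 9 months 12 were higher (42.9%, beside 19.1% of all genes tested) and 4 lower (14.3%, beside 18.9%) in TSCmKO, with a median log2 difference of 0.20 against -0.02 over all genes. At 3 months 7 were higher (25%, beside 11.4%) and 1 lower (3.57%, beside 8.32%). With rapamycin in TSCmKO 8 were lower (28.6%, beside 16.8%) and 3 higher (10.7%, beside 15.8%) at 9 months, and 7 lower (25%, beside 13.0%) and 1 higher (3.57%, beside 10.6%) at 3 months. In CON 3 were called at 9 months, 2 lower and 1 higher (10.7%, near the 11.8% of all genes), and none at 3 months. Slc6a17, a vesicular neutral amino acid carrier, rose from 2.35 to 3.82 CPM in 9mCON to 18.2 to 27.8 CPM in 9mTSCmKO (log2 2.84, SE 0.22), and was 16.9 to 21.4 CPM after rapamycin (log2 -0.16, adjusted p = 0.544). Slc1a1, a glutamate, aspartate and cysteine carrier, rose from 7.999 to 10.9 CPM to 37.5 to 70.6 CPM (log2 2.65, SE 0.21) and fell to 26.2 to 41.0 CPM after rapamycin (log2 -0.67, adjusted p = 0.00695). In 9mCON+RM Slc1a1 read 4.26 to 7.67 CPM, also below its 9mCON range, and Slc6a17 read 1.85 to 4.39 CPM, overlapping its own. The glycine carrier Slc6a9 (log2 1.75, SE 0.21) and the system L carrier Slc43a2 (log2 1.20, SE 0.15) also rose at 9 months. Slc36a1, a lysosomal proton-coupled carrier named after its value was seen, fell from 3.35 to 1.55 CPM (log2 -1.11, SE 0.27, adjusted p = 0.00117).

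Genes of amino acid sensing upstream of mTORC1 were counted from a list of 29, of which 26 were tested. At 9 months 5 were higher in TSCmKO (19.2%, the background being 19.1%) and 3 lower (11.5%, beside 18.9%), so the share of the list that was higher was near that of all genes (median log2 difference 0.18). At 3 months 7 were higher (26.9%, beside 11.4%) and 1 lower (3.85%, beside 8.32%; median 0.17). With rapamycin in TSCmKO 5 were lower (19.2%, beside 16.8%) and 2 higher (7.69%, beside 15.8%) at 9 months, and 10 lower (38.5%, beside 13.0%) and 1 higher (3.85%, beside 10.6%) at 3 months. In CON 3 were lower and 1 higher at 9 months (15.4%, beside 11.8%), and 1 was higher at 3 months (3.85%, beside 0.679%). The 4 genes named here had the largest differences among those called at either age with a mean CPM of 1 or more. Gatsl2, of the CASTOR family, read 98.4 to 166 CPM in 9mCON, 287 to 513 CPM in 9mTSCmKO and 140 to 177 CPM in 9mTSCmKO+RM (log2 1.61 and -1.55). The sestrin Sesn3 read 21.7 to 43.8, 59.5 to 156 and 48.3 to 80.2 CPM in the same groups (log2 1.82 and -0.68). The leucine-binding Sesn2 rose by log2 1.67 and Sesn1 by 1.098, and both fell with rapamycin in TSCmKO (log2 -0.84 and -0.93). In 9mCON+RM Gatsl2 read 69.8 to 95.8 CPM, below its 9mCON range. There Sesn3 (14.8 to 24.2 CPM) and Sesn1 (21.1 to 45.4 CPM) overlapped 9mCON. The Sesn2 mean was 3.64 CPM in 9mCON and 3.92 CPM in 9mCON+RM. At 3 months Gatsl2 (82.2 to 119 CPM) and Sesn3 (23.4 to 35.4 CPM) in 3mCON+RM lay below all 3mCON libraries. Sesn1 and Sesn2 overlapped there.

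A list of 16 genes around ATF4 held its relatives and partners, regulators of the pathway and known targets, and 15 were tested. At 9 months 9 were higher (60%, beside 19.1% of all genes tested) and 1 lower (6.67%, beside 18.9%) in TSCmKO, with a median log2 difference of 0.35. At 3 months 7 were higher (46.7%, beside 11.4%) and none lower (beside 8.32%), with a median of 0.58. With rapamycin in TSCmKO 8 were lower (53.3%, beside 16.8%) and 1 higher (6.67%, beside 15.8%) at 9 months, and 8 lower (53.3%, beside 13.0%) and none higher (beside 10.6%) at 3 months. In CON 2 were lower with rapamycin at each age (13.3%, beside 11.8% of all genes called at 9 and 0.679% at 3 months), with median log2 differences of -0.17 and -0.34. Trib3, a pseudokinase gene that ATF4 drives, read 0.487 to 2.36 CPM in 9mCON, 4.65 to 10.7 CPM in 9mTSCmKO and 0.782 to 1.89 CPM in 9mTSCmKO+RM (log2 2.24 and -2.26). Asns, for asparagine synthetase, read 1.20 to 2.01, 3.797 to 12.2 and 0.782 to 1.89 CPM (log2 2.15 and -2.43). Ddit3 (log2 1.49 and -1.22) and Nupr1 (log2 1.33 and -1.34), both stress-induced regulators, had the same directions. In 9mCON+RM Asns (0.823 to 1.15 CPM) and Nupr1 (2.93 to 7.16 CPM, against 7.39 to 10.3 CPM) also lay below their 9mCON ranges. There Ddit3 (5.42 to 10.5 CPM) and Trib3 (0.309 to 1.69 CPM) overlapped 9mCON. At 3 months only Ddit3 separated in CON (5.39 to 6.86 CPM with and 7.77 to 11.6 CPM without rapamycin). The mRNA of Atf4 itself, named after its value was seen, did not pass (log2 0.26, SE 0.14, adjusted p = 0.131), and Chac1, a glutathione-degrading enzyme gene, fell (log2 -1.12, SE 0.34, adjusted p = 0.00938).

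**Figure D5:**
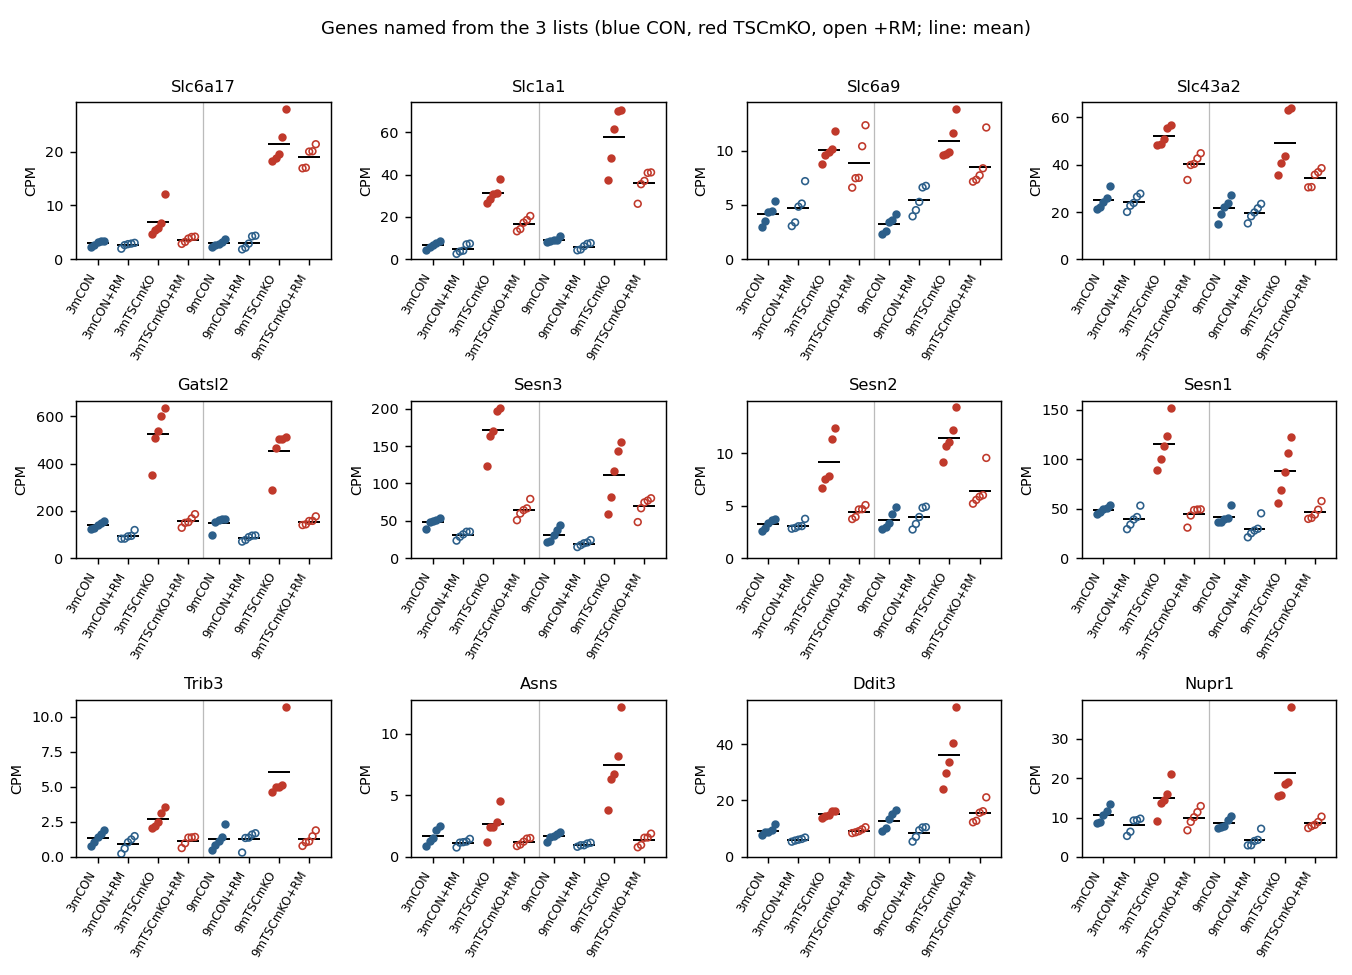
CPM by library of the 12 genes named from the lists of other carriers, amino acid sensing and ATF4, in 8 groups of 5 (CON blue, TSCmKO red, rapamycin open, line at the mean). Slc6a17 read 18.2 to 27.8 CPM in 9mTSCmKO and 16.9 to 21.4 CPM after rapamycin, while Asns read 3.797 to 12.2 CPM and 0.782 to 1.89 CPM.

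The genes most like a carrier over the 8 group means of log2 CPM, each centered on its own mean, were found as a description. They were Fgfrl1 and Me2 for Slc7a5 (root mean square differences of 0.15 and 0.16 log2 units), Nav2 and Esd for Slc7a11 (0.13 each) and Gng11 and Nt5c2 for Slc1a4 (0.13 and 0.16). For the cationic carriers they were Cttn and Sema3b for Slc7a1 (0.10 and 0.11) and Cmtm4 and Dennd4b for Slc7a2 (0.07 each). Zcchc24 and Pnpla7 were closest to Slc7a8 (0.12 each), Nid2 and Kirrel to Slc1a5 (0.06 and 0.07) and Kctd15 and Sobp to Slc38a4 (0.12 and 0.13). Slc3a2 spanned 0.70 log2 units over the groups, too narrow a range for the rule, and none was named for it.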

How the data were processed

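The authors trimmed single-end reads with Cutadapt 1.9.1 and pseudoaligned them with kallisto 0.43.1 to Ensembl transcripts of GRCm38. They deposited estimated counts per gene, splitting reads that match more than 1 transcript equally, and TPM, which the authors divided by transcript length and summed per gene. Counts were used as deposited in edgeR 4.0.16 (R 4.3.3): genes with at least 1 CPM in 5 libraries, TMM scaling, 1 quasi-likelihood fit of all 40 libraries, Benjamini-Hochberg adjustment over 13543 genes and a threshold of 0.05. Ratios used exact permutation tests of log2 TPM ratios. The scripts were tested on simulated data. Alternatives were DESeq2 1.42.0, limma 3.58.1 on log2(TPM + 1) or log2(TPM + 0.1), other scalings and filters, insert size, replicate number, the groups alone, and each library left out. The carriers and lists were chosen with earlier results of these data known. Named were all 10 carriers, up to 4 genes a list (largest genotype effect among genes called at either age, mean CPM of 1 or more), Tsc1, and, where group means spanned 1 log2 unit, the 2 genes most like a carrier (mean CPM of 5 or more). Per the study's text each library came from 1 of 5 mice per group, so p-values measure the spread between mice and their libraries. The labels only number the replicates. Replicate pairs differed beyond counting noise (chi-square per gene 10.5 to 149). Gene positions are from GENCODE M21 and promoters from RefSeq. Some named genes and 1 marker list are not reported here.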

Additional observations from a re-analysis of the deposited data

Results flagged for a closer look

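In sets of 5 values, 4 of 112 held 1 value far from the other 4, where chance gives about 1 in 20. Slc1a5 in 3mTSCmKO replicate 4 read 32.1 CPM, with the next library at 18.6 CPM. Slc38a2 in the same library read 195 CPM, with the next at 141 CPM. Slc38a4 in 3mTSCmKO+RM replicate 1 read 62.6 CPM, with the next at 44.8 CPM. The log2 ratio of Slc1a5 to Slc1a4 in 3mCON+RM replicate 3 was 8.16, with the next at 6.41, and Slc1a4 had 1 count in that library.

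Effects differed between groups in 3 tests. The genotype effect on Slc7a11 was 1.18 log2 units higher at 9 than at 3 months. The rapamycin effect on Slc3a2 at 9 months was 0.66 log2 units lower in TSCmKO than in CON (log2 -0.66). The rapamycin effect on Slc7a11 in TSCmKO was lower at 9 than at 3 months (log2 -1.31), a comparison chosen after the data were seen.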

How the results depend on the processing

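No result changed direction with a call under any alternative run. The counts of carriers called moved by more than 1.5 times as follows. For age in TSCmKO (8 called), 3 were called with insert size as a term and 5 in both filtered limma fits, which hold no value for Slc7a11. Over all genes, calls went from 2586 higher and 2478 lower to 878 and 823 with insert size as a term. For genotype by age (1 called), 2 were called by DESeq2 and 0 with the groups fitted alone, insert size as a term, no filter, or limma on log2(TPM + 0.1). For rapamycin by age in TSCmKO (1 called), which is Slc7a11, 0 were called with the groups fitted alone, without a filter, and in the limma fit without a filter. The 2 filtered limma fits also called 0, but held no value for Slc7a11. For rapamycin by genotype, limma called 0 at 9 months in all 3 fits (1 called), and at 3 months (0 called) 1 was called with the groups fitted alone and with the replicate block. Slc7a11 did not reach the TPM filter of those 2 fits, and the limma fit without a filter did not call it either, for rapamycin by age (adjusted p = 0.349) or genotype by age (0.403). The cause of these shifts was not tested.

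The replicate numbers share only a name: deviations of libraries with the same number correlated between -0.42 and 0.51, and 6 of 40 libraries correlated best with their own number. With the replicate block the carriers called were 9 for genotype at 9 months, 4 at 3 months (Slc7a1 added), 7 and 4 for rapamycin in TSCmKO at 9 and 3 months, and 1 for rapamycin by genotype at 3 months (Slc38a2). The block changed no other call.

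Leaving out 1 library gave 8 to 9 carriers called for genotype at 9 months, 2 to 4 at 3 months, 7 to 9 and 3 to 5 for rapamycin in TSCmKO at 9 and 3 months, 0 to 1 for rapamycin in CON at 9 months, 0 to 2 for genotype by age, 1 to 2 and 0 to 1 for rapamycin by genotype at 9 and 3 months, 0 to 1 for rapamycin by age and 7 to 8 for age in TSCmKO.

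For ratios of carriers as log2 differences, leaving out 1 library gave 0.89 to 1.08 for Slc7a1 to Slc7a2 by genotype at 3 months, -0.78 to -0.56 with rapamycin in TSCmKO at 3 months and -0.93 to -0.55 in CON at 9 months. It gave 0.48 to 0.82 and 1.60 to 2.18 for Slc1a5 to Slc1a4 with rapamycin in TSCmKO at 3 and 9 months, 1.20 to 1.61 for Slc7a5 to Slc7a8 and 0.59 to 0.99 for Slc38a2 to Slc38a4 by genotype at 9 months. Low counts limit Slc1a4 and Slc7a11.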
